A study of Homo sapiens with 12 samples.

Results

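The RUNX family and its partners are 7 human genes: the DNA-binding subunits RUNX1, RUNX2 and RUNX3, their shared partner CBFB, and the ETO corepressors RUNX1T1, CBFA2T2 and CBFA2T3. Their regions were taken from the deposited lists of 5-hydroxymethylcytosine (5hmC) and 5-methylcytosine (5mC) regions whenever a member was named as the gene that holds the region, or as the gene whose start lay at most 5000 bases away. This gave 168 of 327931 5hmC regions and 27 of 65535 5mC regions. All 7 genes were among the 20404 genes with a listed 5hmC region and 6 were among the 12637 genes with a listed 5mC region, since RUNX1T1 had no 5mC region on that list. That list holds only regions with small p-values, so RUNX1T1 cannot be read as lacking 5mC.

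RUNX proteins bind DNA through a Runt domain, and CBFB, which does not touch DNA itself, strengthens that binding and protects the RUNX protein from breakdown. RUNX1 is needed for the formation of blood stem cells and steers myeloid and megakaryocyte maturation, RUNX2 drives bone formation, and RUNX3 acts in T cells, dendritic cells and sensory neurons. The ETO proteins recruit histone deacetylase complexes and bind no RUNX site of their own. RUNX1 and RUNX1T1 are joined by the t(8;21) translocation of acute myeloid leukemia, and CBFB is joined to a myosin heavy chain gene by inversion of chromosome 16 in the same disease. 5mC is the common methyl mark of CpG sites, and 5hmC is made from it by TET enzymes and is often found in gene bodies and at enhancers.

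The measurements came from HL-60, an established line of human promyelocytic leukemia that can mature toward neutrophil-like cells. Differentiated cells had grown with dimethyl sulfoxide (DMSO) at 1.5% (211 mM) for 7 days and were sorted as viable and positive for CD11b, and undifferentiated cells were sorted as viable and negative for CD11b. Each state had 3 biological replicates, and the sheared DNA of each was shared out between an antibody to 5mC (MeDIP) and an antibody to 5hmC (hMeDIP), so that there were 12 libraries. DMSO and the CD11b sort differ between the states together and cannot be told apart, and all libraries come from 1 cell line. What an antibody pulls down is an amount of DNA that carries the mark, not a share of modified cytosines, and it also moves with CpG density and locus copies. In bulk DNA, a mark on fewer cells and less of the mark per cell cannot be told apart.

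Listed counts per library were between 13010267 and 33693880 for 5hmC and between 6076100 and 9670011 for 5mC, and the members held between 3985 and 12554 of them for 5hmC and between 1063 and 1317 for 5mC. HL-60 is known to carry extra copies of MYC, and the single 5hmC region listed at MYC was 83.4 kb long with 6.35 CPM per kb in differentiated and 8.36 CPM per kb in undifferentiated libraries, against medians over all genes of 2.50 and 2.59. CDKN2A, which the line is known to have lost, still had 1 listed 5hmC region of 0.6 kb, with 1.84 CPM per kb in differentiated and 1.78 in undifferentiated libraries. CPM values are listed counts scaled to 1000000 per library after TMM, which sets libraries to a common level by assuming that most features do not move.

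RUNX genes are known to be read from a distal and a proximal promoter, and 7 windows of 5 members were found in RefSeq (GRCh38.p14). The 250 bases before 3 of these starts are shown: the distal starts of RUNX2 and RUNX3, since the largest RUNX2 rise and a RUNX3 region lie at these ends, and the single RUNX1 start of the table, which had no listed 5hmC region just before it. Capitals mark the core RUNX motif, TGTGGT on the strand shown or ACCACA as its reverse complement; these 2 forms were searched in every window and do not overlap each other here. RUNX2 distal, chr6:45328080-45328329, plus strand, held 0 CpG sites in these bases.
RUNX2 distal: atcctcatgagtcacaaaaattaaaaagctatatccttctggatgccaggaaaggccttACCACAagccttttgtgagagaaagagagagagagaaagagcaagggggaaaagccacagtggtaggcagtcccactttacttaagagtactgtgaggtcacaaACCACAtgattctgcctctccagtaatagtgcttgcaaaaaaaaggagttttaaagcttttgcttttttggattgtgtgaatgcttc
RUNX3 distal, chr1:24965011-24965260, minus strand, held 13 CpG sites.
RUNX3 distal: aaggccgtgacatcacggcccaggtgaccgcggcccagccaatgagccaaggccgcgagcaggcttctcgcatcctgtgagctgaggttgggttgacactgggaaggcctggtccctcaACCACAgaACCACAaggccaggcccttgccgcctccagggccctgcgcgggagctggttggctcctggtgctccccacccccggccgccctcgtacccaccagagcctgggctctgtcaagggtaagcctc
RUNX1, chr21:34888700-34888949, minus strand, held 32 CpG sites.
RUNX1: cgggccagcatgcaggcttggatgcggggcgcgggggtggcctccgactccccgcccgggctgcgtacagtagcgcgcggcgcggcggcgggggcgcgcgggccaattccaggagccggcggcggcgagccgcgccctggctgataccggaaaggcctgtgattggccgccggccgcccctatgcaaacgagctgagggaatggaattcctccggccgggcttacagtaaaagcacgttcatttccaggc
The starts in the deposited distances lie on hg19 and were set beside these windows by their order along each gene, not by coordinates.

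The distal windows of RUNX2 and RUNX3 were the CpG-poorer ones: the proximal windows held 34 CpG sites in RUNX2 and 33 in RUNX3. The single windows of CBFA2T3 and CBFA2T2 held 36 and 2, and the median over 35116 windows of the RefSeq table was 11. The deposited distances run to further starts in both genes, so these windows need not stand for the starts described below. A CBFA2T2 start, for example, lies 729 bases from a 5hmC region in an island shore. The motif was found in 13.1% of all windows of 300 bases (250 before and 50 after a start), and 1.31% held at least 2. The RUNX2 distal window held 4 motifs and the RUNX3 distal window held 2, and none of the other 5 member windows held one. Both distal windows share a run of 18 bases with a tandem pair of motifs, found in no other window of the table: it starts 15 bases after the RUNX2 start (chr6:45328344-45328361) and 133 bases before the RUNX3 start (chr1:24965126-24965143).
Shared run: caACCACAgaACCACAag
A match of letters is a description of these windows and says nothing about binding in HL-60 cells.

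Summed over each gene, 5hmC rose at RUNX1 and RUNX1T1 and fell at CBFB and CBFA2T2 in differentiated cells, and RUNX2, RUNX3 and CBFA2T3 did not pass the test. Thus 4 of 7 members passed, 2 in each direction, while 51.6% of all 20404 genes tested passed in this comparison (25.7% higher and 25.8% lower), so the share of members that passed was near that of all genes. The quasi-likelihood test of edgeR was used, with p-values adjusted over all genes by the Benjamini-Hochberg method and a threshold of 0.05. Without TMM scaling the median of all genes moved to -0.19 on the log2 scale and 15.7% of the called genes were higher, against 49.9% with it.

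RUNX1 gave 79.6, 87.9 and 81.4 CPM of 5hmC in the 3 differentiated libraries, against 68.2, 66.7 and 65.3 CPM in the 3 undifferentiated ones. All differentiated libraries lay above all undifferentiated ones, as they did one way or the other for 57.1% of all genes. The means were 83.0 ± 4.38 CPM in differentiated and 66.7 ± 1.41 CPM in undifferentiated cells (SD, n = 3 each), giving a log2 fold change of 0.31 with an SE of 0.0536 (adjusted p = 0.000478). Without TMM scaling the log2 fold change was 0.10 and did not pass (adjusted p = 0.173).

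RUNX1T1, the corepressor known as ETO or MTG8, rose more on the log2 scale. It gave 27.2, 31.5 and 29.9 CPM of 5hmC in differentiated libraries, against 19.96, 22.6 and 21.2 CPM in undifferentiated ones, with no overlap. The log2 fold change was 0.48 (SE 0.0692, adjusted p = 0.000147), and without TMM scaling it was 0.28 and still passed (adjusted p = 0.00919).

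CBFB, the non-DNA-binding subunit, was the member that fell furthest. It gave 27.7, 28.8 and 28.4 CPM of 5hmC in differentiated libraries, against 44.6, 43.1 and 44.1 CPM in undifferentiated ones. The gap between the states was many times the spread within either, with means of 28.3 ± 0.545 CPM in differentiated and 43.9 ± 0.755 CPM in undifferentiated cells (SD, n = 3 each). The log2 fold change was -0.64 (SE 0.0522, adjusted p = 1.61e-05), or 0.644 of the undifferentiated level.

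CBFA2T2, the ETO relative also called MTGR1, fell too. It gave 58.7, 57.1 and 59.0 CPM of 5hmC in differentiated libraries, against 77.8, 75.9 and 80.8 CPM in undifferentiated ones, again without overlap. The log2 fold change was -0.42 (SE 0.0507, adjusted p = 4.47e-05).

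The other 3 members had libraries of the states that overlapped. RUNX2 gave 54.2, 61.3 and 56.7 CPM in differentiated libraries, against 54.8, 58.7 and 51.3 CPM in undifferentiated ones (log2 fold change 0.056, SE 0.0625, adjusted p = 0.463). RUNX3 gave 39.8, 31.9 and 33.8 CPM in differentiated libraries, against 35.0, 34.9 and 33.6 CPM in undifferentiated ones (log2 fold change 0.030, SE 0.071, adjusted p = 0.737). CBFA2T3, the ETO relative also called MTG16, which is expressed mainly in blood cells, gave 47.5, 56.8 and 44.1 CPM in differentiated libraries, against 42.5, 43.0 and 48.5 CPM in undifferentiated ones (log2 fold change 0.13, SE 0.0814, adjusted p = 0.178). The signs of these 3 values turn without TMM scaling, to -0.15, -0.17 and -0.070 in the order named. CBFA2T3 passed without differentiated replicate 3 (0.22, adjusted p = 0.0372) and over gene body regions alone (0.15, adjusted p = 0.0371), and RUNX3 was at -0.065 without differentiated replicate 1.

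**Figure D1:**
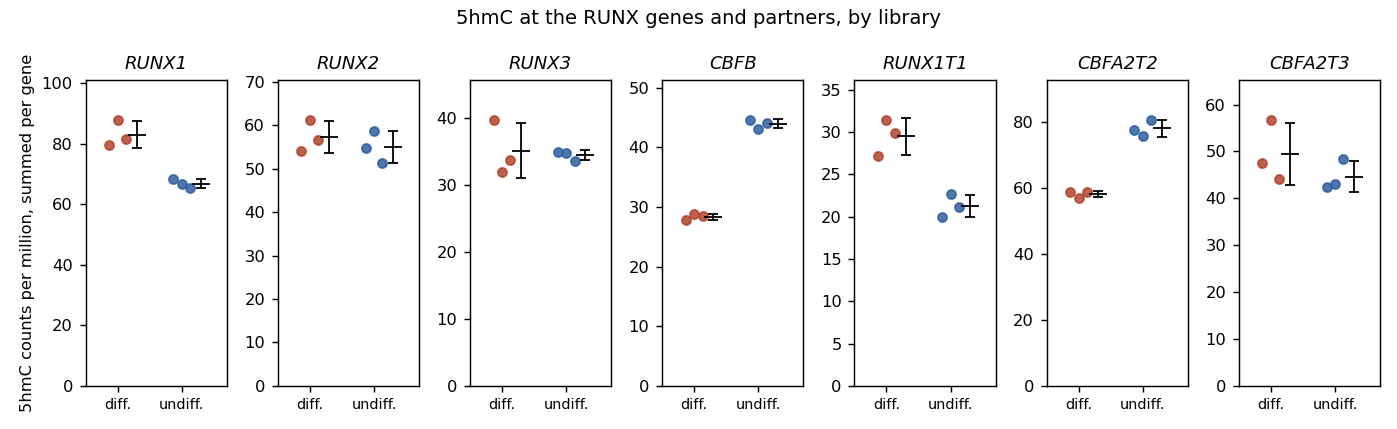
5hmC per gene in CPM (y axis, from 0) for each of the 7 members, with 1 point per library, differentiated left of undifferentiated, and the mean with its SD (n = 3) as a bar. RUNX1 and RUNX1T1 lie higher and CBFB and CBFA2T2 lower in all 3 differentiated libraries, and the points of the other 3 genes overlap.

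Levels were set against each other only per kb of listed region. In differentiated cells the order of 5hmC levels was CBFA2T3 at 3.64 ± 0.483 CPM per kb, RUNX1 at 3.401 ± 0.179, RUNX3 at 2.93 ± 0.344, RUNX1T1 at 2.90 ± 0.214, RUNX2 at 2.76 ± 0.175, CBFB at 1.89 ± 0.0363 and CBFA2T2 at 1.75 ± 0.0313 (SD, n = 3). In undifferentiated cells it was CBFA2T3 at 3.28 ± 0.244, CBFB at 2.93 ± 0.0503, RUNX3 at 2.87 ± 0.0651, RUNX1 at 2.74 ± 0.0578, RUNX2 at 2.64 ± 0.178, CBFA2T2 at 2.35 ± 0.0751 and RUNX1T1 at 2.08 ± 0.132 CPM per kb (SD, n = 3). CBFB was thus the sixth of the 7 in differentiated cells and the second in undifferentiated cells. Neighbours whose means were closer than the larger of their SDs were, in differentiated cells, CBFA2T3 and RUNX1, RUNX3 and RUNX1T1, and RUNX1T1 and RUNX2. In undifferentiated cells they were CBFB and RUNX3, and RUNX1 and RUNX2. Set among all genes by the mean of both states, CBFA2T3 stood at percentile 84.4 of 5hmC per kb and CBFA2T2 at percentile 17.3, and CBFA2T2 had at least as many listed regions as 96.8% of genes.

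**Figure D2:**
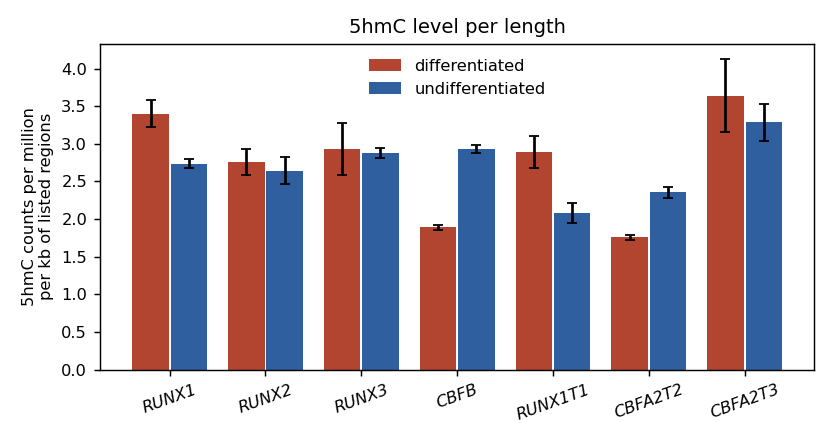
5hmC level of each member in CPM per kb of listed region (y axis, from 0), with bars for the mean and error bars for the SD of 3 libraries, differentiated (left bar) and undifferentiated (right bar). CBFB stands at 1.89 in differentiated and 2.93 in undifferentiated cells, and CBFA2T3 has the highest level of the 7 in both.

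The single regions show how each sum arose. Of the 168 5hmC regions of the members, 36 rose, 45 fell and 87 did not pass, so 48.2% passed, against 50.3% of all regions tested (27% higher and 23.3% lower). In 90 of the 168 all libraries of one state lay above all of the other, against 52.2% of all regions. The regions were 200 to 2800 bases wide (median 600), 161 lay in the body of their member, and their median log2 fold change was -0.096, against -0.040 over all regions. The split depends on the scaling: without TMM 18 rose and 60 fell, and with TMM on the strongest features alone 19 rose and 61 fell, and the share of rises among all called regions was 53.7% with TMM, 28.0% without it and 28.5% on strong features. Without differentiated replicate 3, 28 rose and 27 fell.

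The regions of CBFB moved together and those of RUNX2 did not. All 18 CBFB regions were below 0, from -0.97 to -0.16, and 11 of them passed as lower. A test of whether the regions of a gene share 1 fold change (edgeR's diffSpliceDGE, adjusted over all genes with at least 2 regions) did not pass for CBFB (adjusted p = 0.169). It passed for the other 6 members, as it did for 76.3% of all genes tested. RUNX2 (adjusted p = 5.61e-25), RUNX1 (3.66e-19), CBFA2T2 (2.47e-10) and RUNX1T1 (1.66e-06) passed in every alternative run. RUNX3 (adjusted p = 0.00262) missed the threshold without differentiated replicate 3 (0.0532), undifferentiated replicate 1 (0.0761) or undifferentiated replicate 3 (0.0535). CBFA2T3 (adjusted p = 0.0329) missed it without TMM (0.0505), with the replicate number as a block (0.0818), and without differentiated replicate 1 (0.178) or undifferentiated replicate 1 (0.493).

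**Figure D3:**
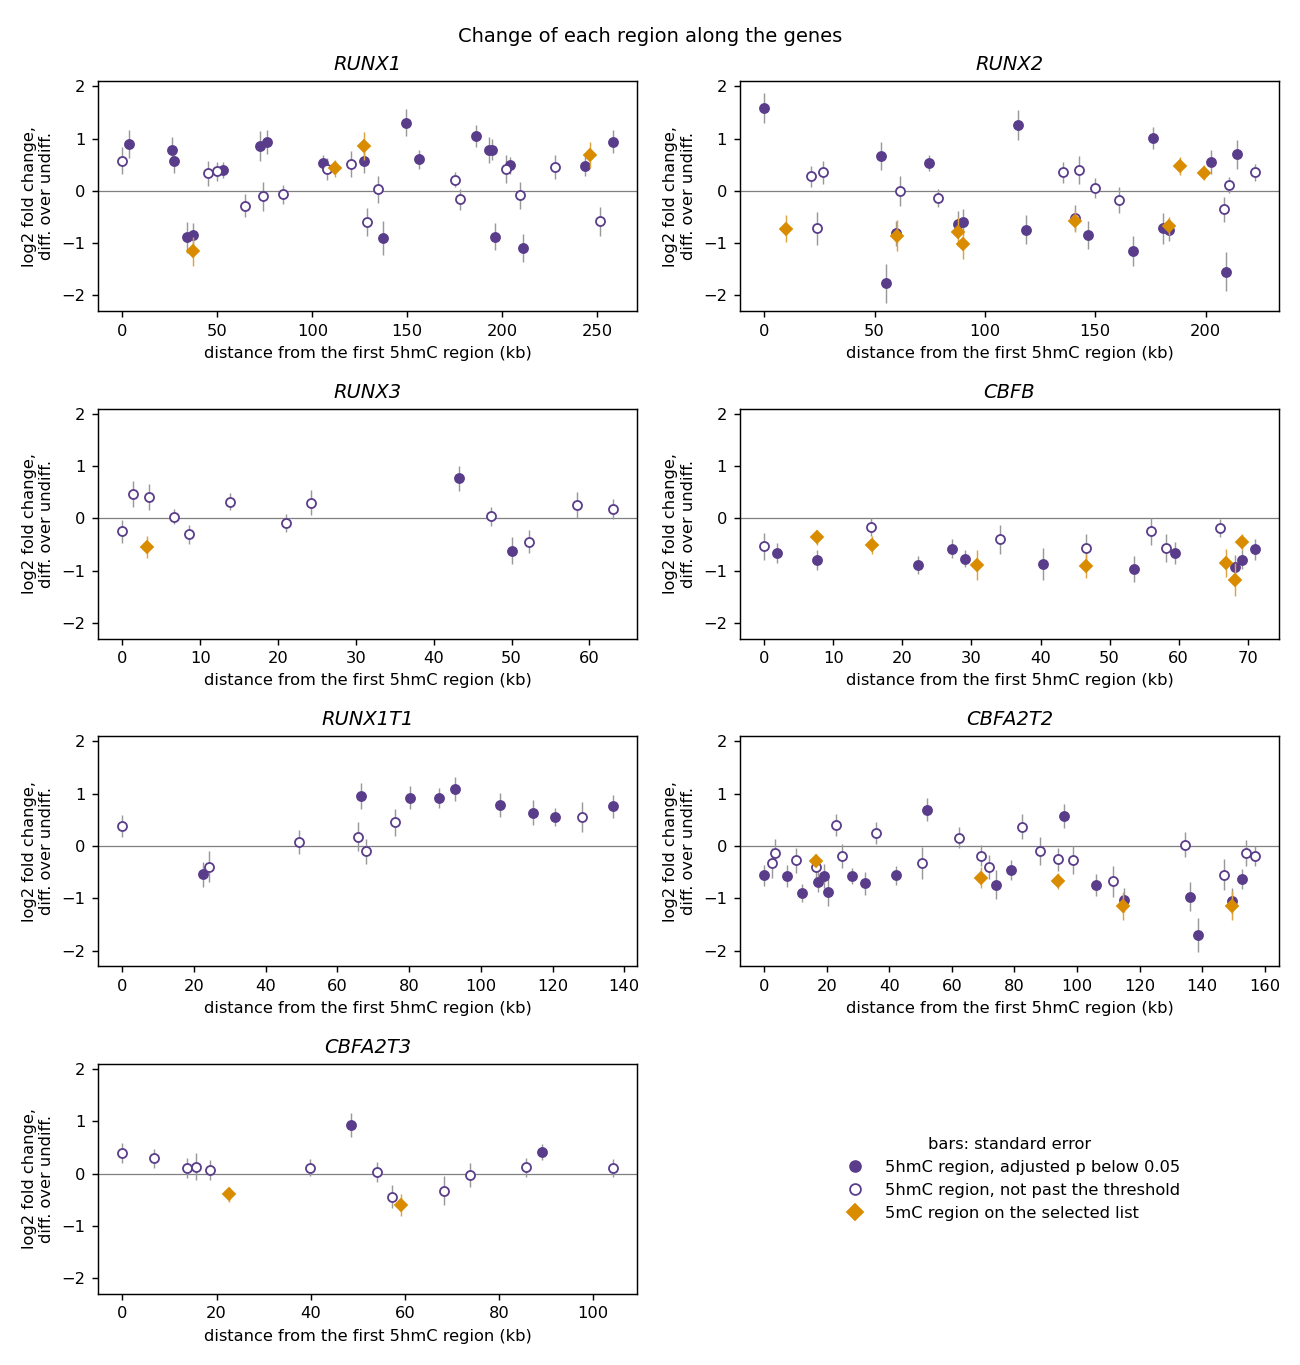
Log2 fold change, differentiated over undifferentiated (y axis), of each listed region along the 7 members, against the distance from the first 5hmC region in kb (x axis); circles are 5hmC regions, filled where the adjusted p is below 0.05, diamonds are 5mC regions of the selected list whether or not they passed, and bars are standard errors. CBFB lies below 0 throughout, RUNX1T1 is higher over its upstream part on the right, and RUNX2 alternates between rises and falls.

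RUNX2 was close to 0 as a sum, while 7 of its 30 regions rose and 10 fell. Its largest rise lay next to the distal start, the one whose RefSeq window above holds 0 CpG sites: region chr6:45292201-45292600 (hg19), 3455 bases before that start and inside the neighbouring gene SUPT3H. It gave 1.35, 1.88 and 1.69 CPM in differentiated libraries, against 0.570, 0.627 and 0.362 CPM in undifferentiated ones, giving a log2 fold change of 1.59 with an SE of 0.282 (adjusted p = 2.2e-05). Its largest fall lay in the shore of a CpG island, chr6:45347401-45347800, 1613 bases from a start of SUPT3H. There the values were 0.225, 0.358 and 0.376 CPM in differentiated libraries, against 0.705, 1.64 and 1.33 CPM in undifferentiated ones (log2 fold change -1.77, SE 0.371, adjusted p = 0.000193). Neither pair of triplets overlapped. The region of highest level per kb, chr6:45366801-45368200, gave 10.9, 16.1 and 11.5 CPM in differentiated libraries, against 9.36, 8.39 and 8.21 CPM in undifferentiated ones (log2 fold change 0.53, adjusted p = 0.00408). It missed the threshold without TMM (0.30, adjusted p = 0.0566) and with TMM on strong features (0.32, adjusted p = 0.06). Of the RUNX2 regions, several also lie within SUPT3H, which runs the opposite way, and their counts cannot be assigned to either gene.

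RUNX1 had 16 regions that rose, 5 that fell and 16 that did not pass among its 37, which spread over chr21:36161401-36420000. The largest rise was at chr21:36310601-36311000, inside the gene, with 2.25, 2.06 and 1.72 CPM in differentiated libraries, against 0.570, 1.01 and 0.966 CPM in undifferentiated ones (log2 fold change 1.30, SE 0.255, adjusted p = 8.66e-05). The largest fall was at chr21:36372401-36372800, with 0.845, 1.07 and 0.783 CPM in differentiated libraries, against 2.39, 1.25 and 1.57 CPM in undifferentiated ones (log2 fold change -1.09, SE 0.26, adjusted p = 0.00078). Without undifferentiated replicate 1 that fall was -0.70 and did not pass (adjusted p = 0.0772). The region nearest before a RUNX1 start, chr21:36267001-36268600, began 6014 bases from it and so lay outside the 5000 bases counted as upstream. It gave 7.83, 7.25 and 6.73 CPM in differentiated libraries, against 4.69, 4.44 and 6.04 CPM in undifferentiated ones (log2 fold change 0.54, adjusted p = 0.00315). This rise just missed the threshold without TMM (0.32, adjusted p = 0.0541) and with TMM on strong features (0.33, adjusted p = 0.0504). The highest level per kb was at chr21:36365601-36366400, with 9.0005 CPM per kb in differentiated and 6.25 CPM per kb in undifferentiated cells (log2 fold change 0.48, adjusted p = 0.00867). It did not pass without differentiated replicate 2 (0.30, adjusted p = 0.0607), without undifferentiated replicate 1 (0.47, adjusted p = 0.0513) without TMM (0.26, adjusted p = 0.121), with TMM on strong features (0.27, adjusted p = 0.115) or by DESeq2's Wald test (0.51, adjusted p = 0.0616).

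RUNX1T1 was uneven in another way. Of its 16 regions, 8 rose and 1 fell, and all 8 rises were among the 12 regions whose deposited distance runs to a RUNX1T1 start. Those 12 regions together gave 22.1, 25.0 and 24.9 CPM in differentiated libraries, against 14.6, 15.8 and 15.3 CPM in undifferentiated ones, without overlap. For the 4 regions toward the end of the gene the deposited distance runs to the start of TMEM55A, 917598 to 966798 bases away. That start need not be the nearest one. These 4 regions gave 5.35, 6.63 and 5.198 CPM in differentiated libraries, against 5.26, 6.46 and 5.97 CPM in undifferentiated ones, and these overlapped. The region at a RUNX1T1 start, chr8:93107601-93108000, also had the gene's highest level per kb. It gave 2.48, 2.95 and 1.88 CPM in differentiated libraries, against 1.28, 1.40 and 1.449 CPM in undifferentiated ones (log2 fold change 0.76, SE 0.216, adjusted p = 0.00374). The largest rise, at chr8:93063601-93064000, was at 1.09 on the log2 scale (SE 0.227, adjusted p = 0.000187). The only fall, at chr8:92993401-92993800, was weakly supported (log2 fold change -0.55, adjusted p = 0.048) and was lost without differentiated replicates 1 (-0.54, adjusted p = 0.0973) or 3 (-0.40, adjusted p = 0.26) and without undifferentiated replicates 2 (-0.48, adjusted p = 0.123) or 3 (-0.49, adjusted p = 0.108), with the replicate block (-0.54, adjusted p = 0.0748), with DESeq2's size factors (adjusted p = 0.0518) and by its Wald test (adjusted p = 0.181).

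In CBFB the largest fall was at chr16:67113201-67113600, with 0.676, 0.985 and 0.971 CPM in differentiated libraries, against 1.87, 1.69 and 1.57 CPM in undifferentiated ones (log2 fold change -0.97, SE 0.252, adjusted p = 0.00173). The region of highest level per kb, chr16:67127801-67128200 near the end of the gene, gave 0.902, 0.985 and 1.38 CPM in differentiated libraries, against 2.25, 2.1702 and 2.113 CPM in undifferentiated ones (log2 fold change -0.92, SE 0.224, adjusted p = 0.000945). At the other end, the island shore region chr16:67061401-67062400, 651 bases from the CBFB start, was at -0.67 on the log2 scale (SE 0.195, adjusted p = 0.00465), and -0.45 without differentiated replicate 3, where it did not pass (adjusted p = 0.113), nor by DESeq2's Wald test (-0.62, adjusted p = 0.0779).

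CBFA2T2 had 17 falls and 2 rises among 39 regions. The largest fall was at chr20:32211601-32212200, with 0.282, 0.806 and 0.344 CPM in differentiated libraries, against 1.33, 1.21 and 1.63 CPM in undifferentiated ones (log2 fold change -1.71, SE 0.324, adjusted p = 5.4e-05). The larger of the 2 rises was at chr20:32125001-32125600, with 2.20, 1.88 and 1.85 CPM in differentiated libraries, against 1.25, 1.35 and 0.966 CPM in undifferentiated ones (log2 fold change 0.70, SE 0.226, adjusted p = 0.00986). It missed the threshold without TMM (0.49, adjusted p = 0.0732), with TMM on strong features (0.49, adjusted p = 0.0646), by DESeq2's Wald test (0.72, adjusted p = 0.0665) and without differentiated replicate 1 (0.62, adjusted p = 0.0501). The region nearest before a start, chr20:32076401-32077200 at 729 bases, lay at -0.14 (SE 0.264, adjusted p = 0.659) and its libraries overlapped. The region of highest level per kb, chr20:32108601-32109000, gave 4.85 CPM per kb in differentiated and 4.01 in undifferentiated cells and did not pass (log2 fold change 0.24, adjusted p = 0.319).

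RUNX3 and CBFA2T3 had few regions that passed, 1 rise and 1 fall among 14 for RUNX3 and 2 rises among 14 for CBFA2T3. The RUNX3 region chr1:25290401-25292000 (hg19) holds the distal start, the one whose RefSeq window above has the tandem motif pair. It gave 4.06, 2.33 and 2.57 CPM in differentiated libraries, against 2.66, 3.09 and 2.05 CPM in undifferentiated ones, which overlap (log2 fold change 0.18, SE 0.183, adjusted p = 0.401; -0.079 without differentiated replicate 1 and -0.031 without TMM). The RUNX3 rise was at chr1:25270601-25271400 (log2 fold change 0.77, SE 0.235, adjusted p = 0.00666) and missed the threshold without differentiated replicate 1 (0.64, adjusted p = 0.0524) or undifferentiated replicate 1 (0.54, adjusted p = 0.107), and by DESeq2's Wald test (0.76, adjusted p = 0.0631). The RUNX3 fall, at chr1:25277401-25277800, was at -0.62 (SE 0.26, adjusted p = 0.0407), and its libraries overlapped. That fall did not pass without differentiated replicates 2 (-0.46, adjusted p = 0.112) or 3 (-0.38, adjusted p = 0.296) or undifferentiated replicates 1 (-0.43, adjusted p = 0.268) or 3 (-0.61, adjusted p = 0.0711), or with the replicate block (-0.60, adjusted p = 0.0621) or DESeq2's Wald test (-0.59, adjusted p = 0.192), and it was at -1.08 without differentiated replicate 1 (adjusted p = 0.0061). The highest RUNX3 level per kb lay in a CpG island, chr1:25234001-25235200, with 7.12 CPM per kb in differentiated and 6.96 in undifferentiated cells (log2 fold change 0.035, adjusted p = 0.846; -0.18 without TMM).

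CBFA2T3 held the strongest 5hmC signals of the 7 genes. Its region chr16:89046001-89047400, 2497 bases before a start of the gene, gave 13.6, 22.5 and 11.5 CPM in differentiated libraries, against 13.7, 12.0 and 17.7 CPM in undifferentiated ones. Differentiated replicate 2 stood above the rest, the states overlapped, and the log2 fold change was 0.10 (SE 0.171, adjusted p = 0.621), or -0.21 without that library, -0.012 without undifferentiated replicate 2 and -0.14 without TMM. The highest level per kb, in an island shore at chr16:89031001-89031600, was 13.9 CPM per kb in differentiated and 10.2 in undifferentiated cells (log2 fold change 0.42, adjusted p = 0.0221). It did not pass without differentiated replicates 1 (0.43, adjusted p = 0.0565) or 2 (0.25, adjusted p = 0.112), without undifferentiated replicates 1 (0.32, adjusted p = 0.18) or 2 (0.41, adjusted p = 0.0596), without TMM (0.19, adjusted p = 0.248), with TMM on strong features (0.20, adjusted p = 0.238) or by DESeq2's Wald test (0.44, adjusted p = 0.1005). The largest rise, at chr16:88990401-88991200, gave 2.09, 1.79 and 1.88 CPM in differentiated libraries, against 0.841, 1.21 and 1.09 CPM in undifferentiated ones (log2 fold change 0.93, SE 0.238, adjusted p = 0.00154).

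Counted within 5000 bases upstream of the starts alone, 5hmC rose at RUNX2 and RUNX1T1 and fell at CBFB and CBFA2T2. These were 4 of the 6 members with an upstream region, against 48.5% of the 15507 genes tested (24.2% higher and 24.2% lower), and RUNX1 had none. RUNX2 rested on the 1 region described above (log2 fold change 1.57, SE 0.274, adjusted p = 8.14e-05). RUNX1T1 gave 4.45, 4.37 and 4.09 CPM over 2 regions in differentiated libraries, against 2.32, 2.70 and 2.71 CPM in undifferentiated ones (log2 fold change 0.75, SE 0.152, adjusted p = 0.000335). CBFB over 2 regions was at -0.64 (SE 0.151, adjusted p = 0.00135) and CBFA2T2 over 5 at -0.46 (SE 0.116, adjusted p = 0.00222). RUNX3 at 0.16 (adjusted p = 0.496) and CBFA2T3 at 0.033 (adjusted p = 0.862) did not pass, and without TMM they were at -0.030 and -0.18. With 2000 bases in place of 5000, CBFA2T2 was at -0.24 and no longer passed (adjusted p = 0.276), and 2 of the 4 members tested passed in all.

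In CpG islands and their shores (within 2000 bases) 3 of 6 members passed, 1 higher and 2 lower, against 45.8% of 11055 genes (25.3% higher and 20.5% lower). RUNX1 had 1 such region, the island chr21:36164801-36165200, with 1.34, 1.60 and 1.53 CPM in differentiated libraries, against 0.928, 0.784 and 0.602 CPM in undifferentiated ones (log2 fold change 0.87, SE 0.249, adjusted p = 0.00652). CBFB fell in its 1 shore region (-0.69, SE 0.192, adjusted p = 0.00541), and CBFA2T2 fell over 4 shore regions (-0.34, SE 0.118, adjusted p = 0.0209). Without differentiated replicate 3 neither fall passed (CBFB -0.48, adjusted p = 0.0895; CBFA2T2 -0.32, adjusted p = 0.0898), which left RUNX1 as the 1 member that did. CBFA2T2 was also lost without differentiated replicate 1 (-0.32, adjusted p = 0.0724) and undifferentiated replicates 1 (-0.32, adjusted p = 0.092) and 3 (-0.28, adjusted p = 0.0811) and by DESeq2's Wald test (-0.33, adjusted p = 0.129), and it was at -0.53 without TMM (adjusted p = 0.00218). CBFB also just missed the threshold by the Wald test (-0.64, adjusted p = 0.050016). RUNX2 (-0.25), RUNX3 (-0.016) and CBFA2T3 (0.16) did not pass, although CBFA2T3 had 9 regions in islands or shores and RUNX3 had 5. The values of RUNX2, RUNX3 and CBFA2T3 turned to 0.64, 0.074 and -0.075 over islands alone, and that of CBFA2T3 was -0.042 without TMM. Islands alone rose in most genes: the median of all genes was 0.34 there, and 1338 of 3673 genes were higher and 135 lower.

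The 5mC list holds only regions with small deposited p-values for a difference between the states. Most of what it holds therefore passes, and the members are read only against that list. At the level of genes RUNX1 was higher and RUNX2, RUNX3, CBFB, CBFA2T2 and CBFA2T3 were lower, 6 of 6, while 84.2% of all 12637 listed genes passed (41% higher and 43.2% lower). In each of the 6 the libraries of the states were apart, against 77.8% of listed genes. Without TMM the median of all listed genes moved to -0.31 on the log2 scale, and 17.1% of called genes were higher, against 48.7% with it. The falls of the members were then larger, at -0.85 for CBFB, -0.80 for RUNX3, -0.76 for CBFA2T2, -0.72 for CBFA2T3 and -0.48 for RUNX2.

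RUNX1 gave 19.4, 21.9 and 21.5 CPM of 5mC over 4 regions in differentiated libraries, against 13.6, 18.3 and 17.4 CPM in undifferentiated ones. The log2 fold change was 0.35 (SE 0.109, adjusted p = 0.00335), but it did not pass without undifferentiated replicate 1 (0.22, adjusted p = 0.0743) or without TMM (0.039, adjusted p = 0.746), and it was at 0.23 with TMM on strong features (adjusted p = 0.0495). The RUNX1 region of highest 5mC level per kb was chr21:36273401-36274000. It gave 11.2, 9.90 and 9.26 CPM in differentiated libraries, against 5.93, 7.06 and 9.66 CPM in undifferentiated ones. These overlapped, and the region did not pass (log2 fold change 0.43, SE 0.158, adjusted p = 0.0515), except without undifferentiated replicate 3 (0.64, adjusted p = 0.0145). RUNX1 was the only one of the 6 with more 5mC in differentiated cells on this list.

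CBFB gave 30.4, 31.0 and 29.9 CPM of 5mC over 7 regions in differentiated libraries, against 45.6, 42.1 and 44.7 CPM in undifferentiated ones (log2 fold change -0.54, SE 0.0752, adjusted p = 2.54e-09). CBFA2T2 gave 37.7, 40.3 and 38.8 CPM over 5 regions in differentiated libraries, against 53.0, 54.2 and 52.4 CPM in undifferentiated ones (log2 fold change -0.45, SE 0.0675, adjusted p = 2e-08). Both genes fell by clear gaps with little spread, and both also fell in 5hmC. CBFA2T3 gave 13.1, 14.7 and 11.9 CPM over 2 regions in differentiated libraries, against 17.2, 19.6 and 15.7 CPM in undifferentiated ones (log2 fold change -0.41, SE 0.119, adjusted p = 0.00179).

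The falls at RUNX2 and RUNX3 were less secure. RUNX2 gave 38.7, 37.1 and 39.4 CPM over 8 regions in differentiated libraries, against 39.8, 43.0 and 47.6 CPM in undifferentiated ones (log2 fold change -0.17, SE 0.0727, adjusted p = 0.0247). It did not pass without differentiated replicate 2 (-0.15, adjusted p = 0.0759) or undifferentiated replicate 3 (-0.10, adjusted p = 0.246), or over regions of 1 gene alone (-0.13, adjusted p = 0.101). RUNX3 had 1 region, with 3.90, 3.92 and 4.20 CPM in differentiated libraries, against 4.89, 4.87 and 7.21 CPM in undifferentiated ones (log2 fold change -0.49, SE 0.21, adjusted p = 0.0264). It did not pass without differentiated replicates 1 (-0.48, adjusted p = 0.0605) or 2 (-0.48, adjusted p = 0.0541) or undifferentiated replicate 3 (-0.28, adjusted p = 0.265), and the region itself, chr1:25230601-25231400, did not pass in the region test (-0.55, adjusted p = 0.0606). The gene and the region hold the same counts here. Their p-values were adjusted unlike, over the 12637 listed genes and over 328588 tests for regions. That region did pass without TMM (-0.80, adjusted p = 0.00232) and with TMM on strong features (-0.82, adjusted p = 0.00164). By DESeq2's Wald test neither gene passed (RUNX2 adjusted p = 0.103, RUNX3 adjusted p = 0.0961).

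**Figure D4:**
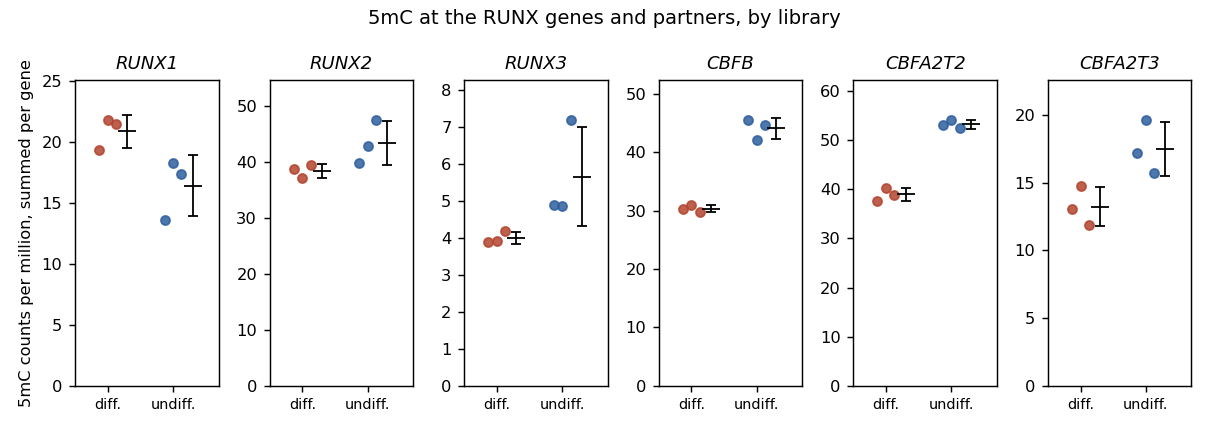
5mC per gene in CPM (y axis, from 0) over the regions of the selected list, for the 6 members that have one, with 1 point per library, differentiated left of undifferentiated, and the mean with its SD (n = 3) as a bar. RUNX1 is higher and the other 5 are lower in differentiated libraries.

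Of the 27 single 5mC regions, 2 rose, 19 fell and 6 did not pass when p-values were adjusted over the 328588 tests that the deposited p-values imply. Thus 77.8% passed, against 72.7% of all listed regions (35.7% higher and 37.1% lower), and the libraries of the states were apart in 23 of 27, against 86.1% of the list. The median log2 fold change was -0.61, against 0.22 over the whole list. The list median lies between listed rises and listed falls and is no typical value. It was -0.035 without TMM and -0.054 with TMM on strong features. Of the 27 regions, 8 lie in RUNX2, 7 in CBFB and 5 in CBFA2T2. Without TMM, and with TMM on strong features alone, 0 rose and 22 fell, and the share of rises among all called regions was 49.0% with TMM, 7.09% without it and 5.87% on strong features. The count was between 11 and 13 whichever library was left out: 12, 11 and 11 without differentiated replicates 1, 2 and 3, and 11, 12 and 13 without undifferentiated replicates 1, 2 and 3. In the same runs the whole list gave between 14129 and 15162 rises and between 14949 and 15543 falls, against 23374 and 24294 with all libraries. By DESeq2's Wald test 0 of the 27 passed (smallest adjusted p = 0.0663), and 22 had an unadjusted p below 0.05, against 27 by edgeR. Few regions of the whole list passed by the Wald test, 2031 higher and 1532 lower of 65535.

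The largest 5mC fall in RUNX1 was at chr21:36198601-36199000, with 2.03, 1.24 and 2.172 CPM in differentiated libraries, against 3.64, 5.11 and 3.75 CPM in undifferentiated ones (log2 fold change -1.16, SE 0.271, adjusted p = 0.00179). The largest RUNX1 rise was at chr21:36288801-36289200, with 3.04, 4.26 and 4.23 CPM in differentiated libraries, against 1.89, 2.55 and 1.87 CPM in undifferentiated ones (log2 fold change 0.86, SE 0.269, adjusted p = 0.0204). That rise was lost without differentiated replicates 2 (adjusted p = 0.0793) or 3 (0.0959), without undifferentiated replicates 1 (0.0858) or 3 (0.0823), without TMM (0.226) and with TMM on strong features (0.277). In CBFB the largest fall was at chr16:67127801-67128200, the region with the gene's highest 5hmC level per kb, with 1.35, 1.93 and 1.14 CPM of 5mC in differentiated libraries, against 3.77, 2.25 and 3.75 CPM in undifferentiated ones (log2 fold change -1.17, SE 0.309, adjusted p = 0.00566). In CBFA2T2 it was at chr20:32187401-32188200 (-1.15, SE 0.26, adjusted p = 0.00123). In RUNX2 it was at chr6:45382201-45382600, 7315 bases before the proximal start (-1.02, SE 0.276, adjusted p = 0.007), and it missed the threshold without differentiated replicate 3 (-0.83, adjusted p = 0.0638). In CBFA2T3 it was at chr16:89001001-89001600 in an island shore (-0.61, SE 0.208, adjusted p = 0.0351); without single libraries it missed the threshold in all but 1 of 6 runs, with adjusted p between 0.0731 and 0.399.

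Of the 27 5mC regions, 19 overlapped a 5hmC region of the same gene, in 21 pairs. The same DNA preparations were used for both marks, so the marks are not independent of each other and their values are given side by side without a test. At the CBFB region chr16:67127801-67128200 the log2 fold change was -1.17 for 5mC and -0.92 for 5hmC. At the RUNX1 region chr21:36198601-36199000 it was -1.16 for 5mC and -0.86 for 5hmC. At the RUNX2 region chr6:45475801-45476200, which has that gene's highest 5mC level per kb, it was -0.68 for 5mC and -0.75 for 5hmC, and without undifferentiated replicate 2 the 5mC value was -0.55 and did not pass (adjusted p = 0.0649). The RUNX3 pair stood apart from these, with -0.55 for 5mC and 0.41 for 5hmC, neither past its threshold. CBFB also had regions where the marks differed in size: chr16:67126401-67126800 was at -0.86 for 5mC, and the overlapping 5hmC region at -0.19 did not pass (adjusted p = 0.348).

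**Figure D5:**
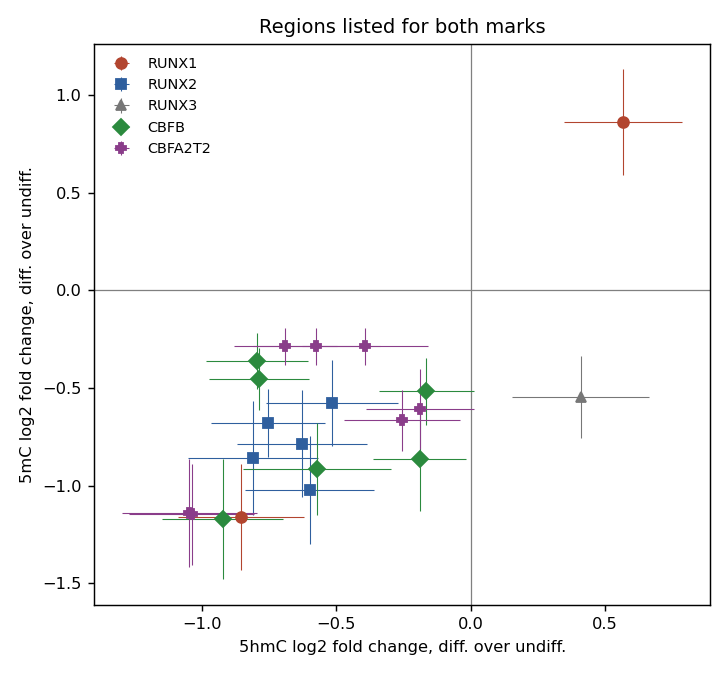
Log2 fold change, differentiated over undifferentiated, of 5hmC (x axis) and 5mC (y axis) in the 21 pairs of overlapping regions, colored by gene with standard errors; a 5mC region that meets several 5hmC regions appears once for each. The RUNX3 pair lies at 0.41 and -0.55, and 1 RUNX1 pair lies above 0 for both marks, at 0.57 and 0.86.

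Genes that work with RUNX proteins were taken from 4 lists. Of 20 corepressors and coactivators tested for 5hmC, 5 rose and 7 fell, with a median log2 fold change of -0.0098, against 0.0064 over all genes. TLE3, a Groucho corepressor, rose (0.56, SE 0.0866, adjusted p = 0.000222; 0.36 without TMM), and SIN3A, a scaffold of histone deacetylase complexes, fell (-0.46, SE 0.0622, adjusted p = 9.79e-05). EP300, a histone acetyltransferase that RUNX1 recruits, fell to 37.8 ± 0.762 CPM in differentiated cells, against 50.9 ± 1.51 CPM in undifferentiated cells (SD, n = 3 each; log2 fold change -0.43, adjusted p = 4.3e-05). HDAC2, a histone deacetylase, was at 0.47 (adjusted p = 0.0354) and lost its call without TMM (0.28, adjusted p = 0.218), with the replicate block (0.51, adjusted p = 0.054), by DESeq2's Wald test (0.50, adjusted p = 0.0922) and without each library other than differentiated replicate 1 (0.39 to 0.54, adjusted p between 0.0636 and 0.0874).

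Of 23 blood transcription factors that bind with RUNX1, 9 rose, 4 fell and 10 did not pass for 5hmC (median 0.097). IKZF1, a zinc-finger factor of lymphoid and myeloid cells, rose to 12.9 ± 1.42 CPM in differentiated cells, against 8.45 ± 0.707 CPM in undifferentiated cells (SD, n = 3 each; log2 fold change 0.60, adjusted p = 0.000283). GATA2, a factor of blood stem cells, rose by 0.45 (SE 0.0792, adjusted p = 0.000496; 0.26 without TMM and 0.74 over gene body regions alone). GFI1, a repressor needed for granulocytes, fell in its 1 region to 0.712 ± 0.390 CPM in differentiated cells, against 1.42 ± 0.102 CPM in undifferentiated cells (SD, n = 3 each; log2 fold change -1.20, adjusted p = 0.00343), and LYL1, a partner of the TAL1 complex, was at -0.73 (SE 0.106, adjusted p = 0.000143).

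Of 18 blood genes known as RUNX targets, 4 rose and 4 fell for 5hmC (median close to 0). MPO, the myeloperoxidase of neutrophil granules, fell to 3.97 ± 0.389 CPM in differentiated cells, against 7.16 ± 0.978 CPM in undifferentiated cells (SD, n = 3 each; log2 fold change -0.84, adjusted p = 0.000239). CCND3, a G1 cyclin, fell (-0.41, SE 0.0503, adjusted p = 4.89e-05), and PRKCQ, a protein kinase C of T cells and platelets, rose (0.39, SE 0.0795, adjusted p = 0.00144) but not without TMM (0.19, adjusted p = 0.0547). ZBTB7B, a T-cell lineage factor, was at 0.20 (adjusted p = 0.0173). Without TMM it was at 5.44e-05, close to no change (adjusted p = 0.9996). It also missed the threshold by DESeq2's Wald test (0.21, adjusted p = 0.0993) and without differentiated replicate 1 (0.19, adjusted p = 0.053) or undifferentiated replicate 1 (0.19, adjusted p = 0.0629), and it was at 0.37 over gene body regions alone (adjusted p = 0.00276). Of 9 skeletal targets of RUNX2, 4 rose and 1 fell (median 0.20): IBSP, bone sialoprotein, was at 0.77 (adjusted p = 0.00363), COL1A2, a collagen chain, at 0.71 (adjusted p = 0.000729) and SPP1, osteopontin, at -1.08 (adjusted p = 0.000402). Against the 51.6% of all genes that passed, 12 of 20, 13 of 23, 8 of 18 and 5 of 9 passed on these lists.

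On the selected 5mC list, 9 of 17 corepressors and coactivators were higher and 5 lower, 7 and 7 of 17 blood factors, 3 and 7 of 12 blood targets, and 1 and 2 of 3 skeletal targets, where 84.2% of all listed genes passed. TLE1, a Groucho corepressor, was at 0.70 (SE 0.124, adjusted p = 1.44e-06) and SIN3A at -0.62 (SE 0.128, adjusted p = 2.17e-05). ETS1, which binds DNA together with RUNX1, rose to 29.0 ± 0.513 CPM of 5mC in differentiated cells, against 18.4 ± 1.85 CPM in undifferentiated cells (SD, n = 3 each; log2 fold change 0.66, adjusted p = 7.6e-09). MPO fell in 5mC as well (-0.65, SE 0.155, adjusted p = 0.000186), and so did ITGA2B, the integrin chain of platelets (-0.63, SE 0.131, adjusted p = 2.33e-05). PRKCQ was higher (0.57, SE 0.102, adjusted p = 1.66e-06), BGLAP, osteocalcin, was lower (-1.37, SE 0.274, adjusted p = 1.31e-05), and SP7, a bone factor, was at -0.79 (SE 0.174, adjusted p = 6.86e-05). The histone deacetylase scaffold SIN3B was at 0.55 (adjusted p = 1.69e-05), the myeloid factor MYB at -0.62 (adjusted p = 0.00047), the ETS factor ELF1 at -1.01 (adjusted p = 0.00113) and IBSP at 0.63 (adjusted p = 0.00112). A further 3 calls were lost without 1 library: the cytokine gene IL3 (0.90, adjusted p = 0.00235) missed the threshold without differentiated replicate 3 (0.57, adjusted p = 0.0839), IKZF1 (0.59, adjusted p = 0.00945) without undifferentiated replicate 3 (0.42, adjusted p = 0.0827), and the arginine methyltransferase PRMT1 (-0.43, adjusted p = 0.0134) without differentiated replicate 1 (-0.25, adjusted p = 0.186). Without TMM, SIN3B (0.24, adjusted p = 0.0535), IBSP (0.32, adjusted p = 0.105) and IKZF1 (0.28, adjusted p = 0.233) did not pass, and TLE1 was at 0.39, ETS1 at 0.35, PRKCQ at 0.26, IL3 at 0.59 and PRMT1 at -0.74. By DESeq2's Wald test PRMT1 (adjusted p = 0.0688) and IKZF1 (adjusted p = 0.0523) did not pass. The 5mC values of MPO, ITGA2B, BGLAP, MYB, ELF1, IBSP, IL3, IKZF1 and PRMT1 each rest on 1 listed region. Their p-values were adjusted over the listed genes alone, which is more lenient than the adjustment of single 5mC regions. For IL3 the libraries of the states overlapped.

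The genes with the pattern most like each member were sought by the root-mean-square difference of centred log2 CPM over the 12 libraries of both marks, among 12328 genes. CBFB was closest to CNR2 (0.0356) and LARS (0.0474), against its own root-mean-square deviation of 0.295. CBFA2T2 was closest to ESRP1 (0.0364) and RNF216 (0.037), RUNX1 to C8orf34 (0.0557) and TBXAS1 (0.0607), and RUNX2 to C9orf84 (0.0526) and TRIP6 (0.0558). CBFA2T3 was closest to RAB5B (0.0614) and GOLM1 (0.0719), and RUNX3, whose own deviation was 0.224, to SLC9A3R2 (0.0803) and CEACAM18 (0.0866). RUNX1T1, over the 6 5hmC libraries and 20403 genes, was closest to STARD5 (0.039) and NKAIN3 (0.0401). Own deviations were 0.221 for CBFA2T2, 0.198 for RUNX1, 0.102 for RUNX2, 0.197 for CBFA2T3 and 0.25 for RUNX1T1. For RUNX2 a small difference says less, since the gene itself deviated little.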

How the data were processed

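MeDIP and hMeDIP libraries of HL-60 cells, 6 per mark, were analysed from a deposited table for each mark, read in its deposited unit of read counts per enriched region; the authors deposited these counts unnormalized. Per the submitters' processing notes, edgeR 2.11, SICER 1.1, BWA, SAMtools 0.1.18 and bedtools 2.17.0 were used on GRCh37 (hg19); which tool made which column is not said there. The tables also hold, per region, the authors' mean log2 CPM and log2 fold change, whose sign runs undifferentiated over differentiated (r = -0.999 for 5hmC against the values here). The deposited p-values and adjusted p-values served to see what the tables hold and to set the number of tests for 5mC regions. P-values reach 0.0165 and adjusted p-values 0.0826 in the authors' deposited table for 5mC. This implies 328588 tests, so that table is a selected list. No correction for the selection was made beyond this number of tests, and that for 5mC regions alone. Per the file headers, distances run to genes, starts and CpG islands. The sources used here do not give their annotation or whether region calling pooled libraries. Of 327949 5hmC regions, 18 with blank counts were left out, and names changed to dates by a spreadsheet stayed unmatched.

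Counts were compared in R 4.3.3 with edgeR 4.0.16 (filterByExpr, TMM, glmQLFit, glmQLFTest; n = 3 per state; limma 3.58.1, data.table version 1.17.8), and figures were drawn with Python 3.11.15, pandas 2.3.3 and matplotlib 3.10.9. Benjamini-Hochberg adjustment ran over all features tested, save for 5mC regions, where it ran over the 328588 implied tests. For 5mC genes it ran over the 12637 listed genes, which leaves their selection uncorrected. Gene values sum all regions in the body or within 5000 bases upstream, so that a region of several genes counts for each. Library totals are those of the listed regions, not sequencing depth, and few counts per region (median 35.5 for 5hmC and 33.2 for 5mC, mean over 6 libraries) limit single regions. Alternatives were other scalings, no filter, DESeq2 1.42.0, a replicate block, each library left out, and narrower region sets. The edgeR tests per gene and per region, and the 5hmC test of change along the gene, were tried on simulated counts with known changes. DESeq2's test, the replicate block, the other scalings and the upstream and island sums were not. The members and gene lists were chosen with earlier results of these data known. Regions are named if they hold a member's largest called rise or fall, its highest mean CPM per kb, or lie nearest before its start. Not every 5mC region of the latter 2 kinds is given. From each gene list the 2 largest rises and falls among those past the threshold are named. No hg19 annotation was used here, so regions are not assigned to exons or introns.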

Additional observations from a re-analysis of the deposited data

How the results depend on the processing

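Without TMM scaling the 5hmC log2 fold changes turned at RUNX2 (-0.15), RUNX3 (-0.17) and CBFA2T3 (-0.070) per gene, upstream at RUNX3 (-0.030) and CBFA2T3 (-0.18), in islands and shores at CBFA2T3 (-0.042), and in the regions chr1:25234001-25235200 (-0.18), chr1:25290401-25292000 (-0.031) and chr16:89046001-89047400 (-0.14). With TMM on strong features they turned in the same 3 regions (-0.18, -0.032 and -0.12) and upstream at CBFA2T3 (-0.0012). Over islands alone RUNX2 was at 0.64, RUNX3 at 0.074 and CBFA2T3 at -0.075. With single libraries left out, RUNX3 ranged between -0.065 and 0.072 per gene, between -0.095 and 0.32 upstream, between -0.071 and 0.035 in islands and shores, between -0.023 and 0.095 in chr1:25234001-25235200 and between -0.079 and 0.35 in chr1:25290401-25292000. In the same runs CBFA2T3 ranged between -0.23 and 0.23 upstream and between -0.21 and 0.30 in chr16:89046001-89047400, and CBFA2T2 between -0.37 and 0.12 in chr20:32076401-32077200. None of the values that turned passed the threshold, before or after turning.

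Counts of members that passed moved by over 1.5 times as follows. DESeq2's Wald test called 36 5hmC regions (18 higher and 18 lower) against 81, 1 member in islands and shores against 3, and 0 5mC regions against 21 (22 at an unadjusted p below 0.05). Calls dropped over all features too. The Wald test called 43569 5hmC regions higher and 23549 lower, against 88581 and 76327 by edgeR. For 5mC regions it called 2031 higher and 1532 lower, against 23374 and 24294. Upstream within 2000 bases 2 of the 4 members tested passed, against 4 of 6, and over islands alone 1 of 4, against 3 of 6. Over all genes, 3049 of 11027 were higher and 2192 lower within 2000 bases, and 1338 of 3673 were higher and 135 lower over islands alone. With single libraries left out, 1 to 3 members passed in islands and shores and 11 to 13 5mC regions passed. The 5hmC regions of the members that passed ranged between 55 and 79 against 81, with 28 higher and 27 lower without differentiated replicate 3 against 36 and 45. Without that library 61888 of all 5hmC regions were higher and 43368 lower. The other counts were 4 to 5 members for 5hmC per gene, 4 upstream, 4 to 6 with unequal change along the gene and 4 to 6 for 5mC per gene. Of the values of single genes and regions, 1091 kept their direction and side of the threshold, 110 lost their call, 7 gained one and 27 turned. Why they moved was not tested.

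The labels give both states the replicate numbers 1 to 3 but state no pairing, so the numbers were not taken as pairs. Deviations of same-numbered libraries had r = -0.00814, -0.15 and -0.167 for 5hmC and 0.0158, -0.00134 and -0.00887 for 5mC, across genes. Differently numbered libraries had r between -0.0488 and 0.162 for 5hmC and between -0.031 and 0.0326 for 5mC. With 3 libraries centred within each state, these values cannot exclude pairing. With the replicate number as a block the counts of members that passed were 4 for 5hmC per gene, 74 for 5hmC regions, 5 for unequal change, 4 upstream, 3 in islands and shores, 6 for 5mC per gene and 21 for 5mC regions.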
